A study of Homo sapiens with 12 samples.

Results

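Re-expression of EHF alone in HCT116 cells was examined by comparing the chromatin of the EHF line with that of the empty vector (EV) line, region by region, outside the exons of EHF itself. HCT116 is an established human colorectal carcinoma cell line. ATAC-seq, in which a Tn5 transposase inserts adapters into open DNA, was used to measure accessibility as the number of reads in each region. HCT116 EHF cells had been transfected with an EHF expression plasmid and selected as geneticin-resistant clones, and HCT116 EV cells carried the empty vector. Whether each line was a single clone or a pool of clones was not given in the sources used here, so line and factor cannot be told apart. There were 3 libraries of each line, and 3 each of a CDX1 line, made by retroviral infection and sorting, and of a line given both factors (EHF+CDX1), in which the EHF plasmid had been put into CDX1 cells. Nothing in the labels says that the 3 libraries of a line came from separate cultures, so the spread between them may be technical.

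The members were chosen by position: of the 30170 regions in the count table, 8 overlapped exons of EHF, at chr11:34642588-34658939 (hg38), and the other 30162 were kept, of which 30146 passed a filter of 3 CPM (reads in a region scaled to a common library total) in at least 1 library. Of all regions, 10566 overlapped an exon, 10443 lay in an intron, 9161 were intergenic, and 44.8% lay within 1 kb of an annotated start site.

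EHF is a member of the ETS family of transcription factors and is expressed in epithelial cells, the colonic epithelium among them. ETS factors share a DNA-binding domain that contacts a short core, GGAA, and the bases on either side of that core differ in preference between family members. Simple repeats built on this core are known as sites where some ETS proteins gather, as is best described for the fusion proteins of Ewing sarcoma. The same letters also occur in tandem in satellite DNA near centromeres, where the unit GGAAT is repeated, so copies of the core were counted separately in the 2 settings.

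Both kinds of sequence recur in the results below, and examples are shown first (reference sequence of hg38, on the strand with more copies). In the following 4 regions, all more accessible on average in EHF cells, capitals mark each GGAA core. They lie 7.15 kb from the start of FAM89A (chr1:231047406-231047556, minus strand, 13 cores), in an intron of SNX29 (chr16:12417597-12417747, minus strand, 12 cores), 80.03 kb from the start of DHX35 (chr20:39110389-39110539, minus strand, 10 cores) and 35.5 kb from the start of LINC02119 (chr5:37989896-37990046, minus strand, 12 cores).
FAM89A region: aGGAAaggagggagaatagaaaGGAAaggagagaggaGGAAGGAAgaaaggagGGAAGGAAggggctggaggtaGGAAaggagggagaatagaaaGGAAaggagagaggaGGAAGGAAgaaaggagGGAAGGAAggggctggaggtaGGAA
SNX29 region: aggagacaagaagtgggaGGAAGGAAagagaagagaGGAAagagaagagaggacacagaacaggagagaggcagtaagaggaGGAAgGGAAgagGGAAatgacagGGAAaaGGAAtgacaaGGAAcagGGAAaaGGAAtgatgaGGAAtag
DHX35 region: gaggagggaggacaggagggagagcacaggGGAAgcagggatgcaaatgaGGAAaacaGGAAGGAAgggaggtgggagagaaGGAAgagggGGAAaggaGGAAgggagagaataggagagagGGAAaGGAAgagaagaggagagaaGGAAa
LINC02119 region: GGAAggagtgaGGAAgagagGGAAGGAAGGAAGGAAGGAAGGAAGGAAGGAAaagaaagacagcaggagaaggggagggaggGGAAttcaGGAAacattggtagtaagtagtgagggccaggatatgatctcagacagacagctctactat

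In the next 2 regions, which were less accessible in EHF cells and lie in intergenic satellite DNA, capitals mark the GGAAT unit. They are chr1:143247172-143247410 (minus strand, 13 units) and chr1:143232401-143232559 (plus strand, 9 units).
Satellite region of 239 bases: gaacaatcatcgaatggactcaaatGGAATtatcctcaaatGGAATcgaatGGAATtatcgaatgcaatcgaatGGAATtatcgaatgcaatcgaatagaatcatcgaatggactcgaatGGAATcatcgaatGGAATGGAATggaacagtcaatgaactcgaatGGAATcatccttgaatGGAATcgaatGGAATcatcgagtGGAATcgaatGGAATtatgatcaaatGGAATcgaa
Satellite region of 159 bases: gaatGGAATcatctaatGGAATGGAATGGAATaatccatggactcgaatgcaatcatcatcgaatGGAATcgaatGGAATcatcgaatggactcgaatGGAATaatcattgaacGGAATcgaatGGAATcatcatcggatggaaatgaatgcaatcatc

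For contrast, a region of neither kind, more accessible in EHF cells with only 2 cores (capitals), is at chr7:119176106-119176261 (plus strand).
Chromosome 7 region: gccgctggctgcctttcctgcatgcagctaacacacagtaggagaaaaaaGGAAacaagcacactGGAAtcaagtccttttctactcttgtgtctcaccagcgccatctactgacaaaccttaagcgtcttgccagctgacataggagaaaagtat

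Depth was low and uneven. EV libraries held 567366 to 1033248 counts and EHF libraries 1388326 to 2247594, but much of this lay on EHF exons or on regions that match mitochondrial DNA (188 of those tested). EHF exons held 33 to 100 counts in EV libraries and 543188 to 1536042 in EHF libraries, which is 53.4%, 34.7% and 68.3% of all counts in EHF replicates 1, 2 and 3, so the labels held. Mitochondrial matches took 65.1% to 73.9% of the remaining counts in EV and 55.1% to 67.2% in EHF libraries. The nuclear regions were left with 148300 to 311536 counts in EV and 233281 to 458392 in EHF libraries, and the median region had 2 to 6 and 5 to 11 counts. Of the epithelial genes checked, 31 of 35 had a region within 5 kb of a start (CDH1 had none), against 2 of 7 genes of blood, vessel, fibroblast and liver cells.

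No member passed the test when the lines were compared without regard to replicate number. edgeR's quasi-likelihood test called 0 of 30146 members at an adjusted p under 0.05 (percent called among all 30154 regions, EHF exons included: 0.00995), DESeq2 called 1, limma voom after quantile normalisation 11, and limma-trend on the deposited log2 CPM 0. At an unadjusted p under 0.05, 772 members were higher and 716 lower in EHF cells (background 2.59% and 2.37%), and the median log2 fold change of all members was 0.01. Scaling by library size alone, with the EHF exons in the total, moved that median to -0.50 and gave 26 higher and 852 lower. Changes of groups of regions are therefore given relative to the median of all members. A region open in fewer cells and a region less open in each cell cannot be told apart.

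The deviations of same-numbered EV and EHF libraries from their line means correlated at 0.23, 0.47 and 0.13 for replicates 1, 2 and 3 over 6735 regions, so the replicate number was also used as a block. Of the mismatched pairs, EV replicate 1 with EHF replicate 3 (0.14) and EV replicate 3 with EHF replicate 1 (0.11) were about as high as the matched pair of replicate 3, and the other 4 were negative. With the replicate block, 58 members were called, 4 higher and 54 lower (background 0.219% of all regions, 0.0398% higher and 0.179% lower). All 58 had the same sign as without the block, which is no separate check, since both fits use the same libraries. The count of 58 rested on single libraries. When 1 EHF library was dropped, it was 33 (replicate 1), 8 (replicate 2) or 8 (replicate 3), and when 1 EV library was dropped, it was 196 (replicate 1), 14 (replicate 2) or 12 (replicate 3). With the block, 891 members were higher and 1234 lower at an unadjusted p under 0.05 (background 2.98% and 4.09%).

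The 4 regions that rose with the block were all outside the 1 kb around start sites and the core-dense region near FAM89A shown above was among them. They fell outside the rule for named regions and were chosen after their values were seen, and 3 of the 4 are described. The region near FAM89A had 0, 0 and 0 counts in EV replicates 1 to 3 and 12, 5 and 20 in EHF replicates 1 to 3. EHF libraries were thus above EV in each replicate, and the mean of 10.4 CPM was at least 3.17-fold higher than the level that 3 counts per EV library would give (edgeR adjusted p = 0.0037 with the block, 0.46 without). The region at chr7:119176106-119176261, 664 kb from the nearest start and with only 2 cores, had 0 counts in all EV libraries and 7, 17 and 5 in EHF libraries, at least 1.81-fold higher than the EV floor (edgeR adjusted p = 0.0085 with the block). CDX1 and EHF+CDX1 libraries overlapped the EHF libraries there, as given in a later section, so the difference from EV was not particular to EHF cells. An exonic region of MIR181A1HG, the host transcript of microRNA genes (chr1:198935562-198935818), stood at 9.88, 2.07 and 3.01 CPM in EV and 9.15, 23.6 and 19.2 in EHF libraries, so that replicate 1 did not differ in the direction of the others (edgeR adjusted p = 0.022 with the block).

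Regions rich in the ETS core were more often higher in EHF cells. This class was chosen after the sequences of the regions above had been seen, so its values are a description and carry no test. Outside satellite and mitochondrial matches, the share of regions higher at an unadjusted p under 0.05 was 1.43% with no GGAA (4604 regions), 2.25% with 1 copy (11237), 2.66% with 2 (8115), 3.39% with 3 (3449), 4.19% with 4 (1290), 7.82% with 5 to 6 (614), 16.5% with 7 to 9 (85) and 4 of the 10 regions with 10 or more. In all, 23 members, 3 of them with 7 or more copies, had passed the filter only through EHF libraries and were thereby bound to be high there. Among regions that a CDX1 or EHF+CDX1 library carried past the filter (an alternative chosen after seeing the data), the share was 1.44% with no copy, 6.93% of 606 regions with 5 to 6, 13.4% of 82 with 7 to 9 and 3 of 9 with 10 or more. EHF+CDX1 cells also carry EHF, so here and below this set is not free of a choice through libraries with EHF. The FAM89A region, for example, had 1, 1 and 1 counts in CDX1 and 9, 0 and 4 in EHF+CDX1 libraries. The share lower went the other way, from 2.11% with no copy to 0.65% with 5 to 6 copies and to 0 of 95 regions with 7 or more. The rise stood beside a background of 2.59% higher and was not seen in the CDX1 line, in which 2.26% of regions with no copy and 0 of the 95 with 7 or more copies were higher than in EV cells (background 1.96%). Both comparisons share the EV libraries.

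**Figure D1:**
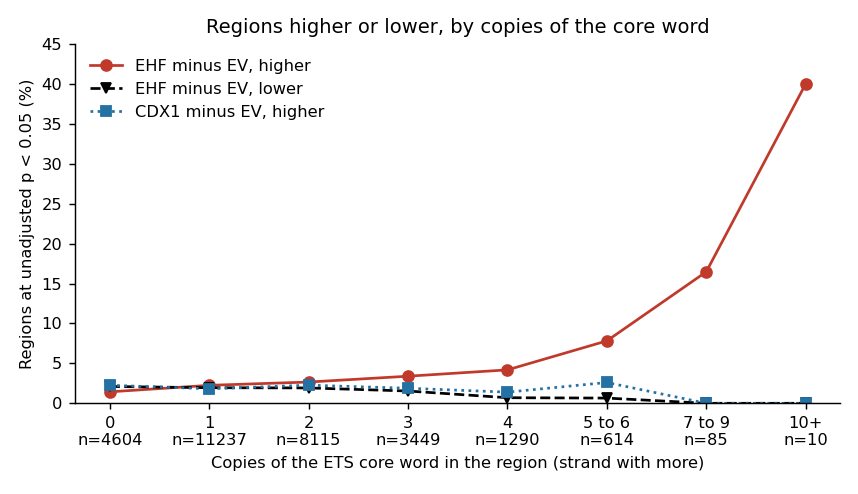
Share of regions at an unadjusted p under 0.05 (percent, vertical axis) by the number of ETS core copies in the region (horizontal axis, with the number of regions), for regions higher and lower in EHF than in EV cells and for regions higher in CDX1 than in EV cells. The red points climb from 1.43% with no copy to 16.5% with 7 to 9 copies and to 4 of 10 regions beyond that, while the black and blue points stay at or below 2.61%.

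Longer regions hold more copies by length alone, but a rise was also seen among short ones. Of regions of at most 160 bases that a CDX1 or EHF+CDX1 library carried past the filter, 2.098% of 17735 with 0 to 3 copies, 5.91% of 609 with 4 to 6 and 8 of 15 with 7 or more were higher at an unadjusted p under 0.05. With all that passed the filter, the last was 12 of 19, but 3 of the 19 had passed it through EHF libraries alone and 1 through EHF and EV libraries. Start-proximal and distal regions differed too. Under the same restriction, 11 of 30 regions over 1 kb from a start site with 7 or more copies (36.7%) were higher, against 3 of 61 (4.92%) of those within 1 kb of one. Place was not separated from length and coverage here. Without the restriction, such distal regions had a median length of 160.5 bases and a median log2 CPM of 2.42, against 336 bases and 3.98 near start sites. Of the 19 short regions, 17 were distal, so the distal regions largely repeat them. At lower copy number the shares by place were nearer, 4.55% of distal and 5.13% of start-proximal regions with 4 to 6 copies.

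Across the 19 short regions with 7 or more cores, the summed level was 37.3, 25.6 and 27.1 CPM in EV replicates 1 to 3 and 178, 31.7 and 176 CPM in EHF replicates 1 to 3. EHF replicates 1 and 3 were far above every EV library, and EHF replicate 2 lay within the EV range. EHF replicate 2 was also the EHF library with the smallest share of counts on EHF exons, 34.7% against 53.4% and 68.3%. Replicate 2 also held the most nuclear counts of its line in both, 311536 in EV and 458392 in EHF libraries. The part of either in the result was not tested. The 15 regions carried past the filter by CDX1 or EHF+CDX1 libraries summed to 34.03, 24.2 and 25.6 CPM in EV and 131, 28.9 and 142 CPM in EHF libraries. All 15 had a positive fitted log2 fold change, with a median of 2.44, or 1.66 when the 2 regions at 0 in all EV libraries were set at their lower bound. Of the 15, 4 had EHF libraries that did not overlap the EV libraries (background of regions not overlapping and higher: 5.98%).

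Single regions of this class ranged from large fitted differences to little or none, and no region of this paragraph was called with or without the block. With the block, edgeR adjusted p-values were 0.13 for the DHX35, 0.27 for the LINC02119 and 0.064 for the NCAPG2 region. Counting intervals leave out the spread between libraries. The DHX35 region had 1, 0 and 0 counts in EV and 8, 5 and 15 in EHF libraries, a ratio of 18.2 (95% counting interval 3.01 to 745). The LINC02119 region was at 0 in all EV libraries and had 7, 1 and 11 counts in EHF libraries, at least 1.71-fold higher than the EV floor. In both, EHF replicate 2 was the lowest of its group but not below EV. The region in SNX29, a sorting nexin gene, had 1, 1 and 1 counts in EV and 13, 4 and 12 in EHF libraries, and since it passed the filter only through EHF libraries, no ratio is given. A region 12.5 kb from the start of NCAPG2, a subunit of the condensin II complex (chr7:158717315-158717465, 7 cores), had 0, 0 and 1 counts in EV and 19, 1 and 13 in EHF libraries, a ratio of 21.5 (3.59 to 873). Other short regions of the class, each with 7 cores, showed little difference: the one at KIAA0040 had 2, 9 and 2 counts in EV and 5, 11 and 5 in EHF libraries (log2 fold change 0.14), the one at CDKL3 had a log2 fold change of 0.05, and the one at CASK had 0, 1 and 1 counts in EV and 0, 3 and 2 in EHF libraries. Nor did every longer core-dense region differ. An exonic region of NUP155 with 11 cores at a start site had 12.1, 5.53 and 7.52 CPM in EV and 8.23, 14.2 and 20.1 in EHF libraries, which overlap, and a region over an exon of SDR42E2 with 10 cores had a log2 fold change of 0.05 ± 0.37 (SE).

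**Figure D2:**
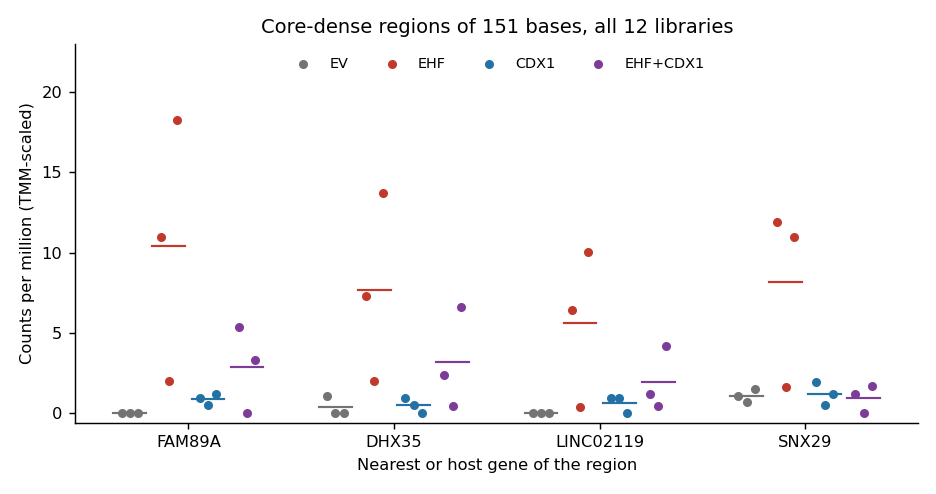
TMM-scaled CPM (vertical axis) of the 4 shortest of the 10 regions with 10 or more ETS cores, 1 point per library and a line at the mean of 3, for EV, EHF, CDX1 and EHF+CDX1 cells. In each of the 4 regions all EHF libraries stand above all EV points, and EHF replicate 2 is the lowest of its line.

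Adding EHF to the CDX1 line gave a second look at the same regions in libraries of other lines. Those libraries were not contrasted above, but they shared its fit, scaling and filter. The 19 short core-dense regions summed to 32.7, 28.5 and 33.1 CPM in CDX1 libraries and to 64.7, 24.4 and 68.9 CPM in EHF+CDX1 libraries. EHF+CDX1 replicates 1 and 3 were above all CDX1 libraries and replicate 2, with 5.43% of its counts on EHF exons against 35.6% and 39.9%, was below them. Replicate 2 also held the most nuclear counts of its line in both, 399842 in CDX1 and 912672 in EHF+CDX1 libraries. The part of either in the result was not tested. Of the 19, 13 had a positive log2 fold change, 4 were higher at an unadjusted p under 0.05 (21.1%) and 0 were lower (background 5.6% lower). That share is near the one for short regions with 0 to 3 copies in the same comparison, 17.1% (background of all regions 11.9%), and the median, 1.05 as fitted and 0.42 with the 3 regions at 0 in CDX1 cells set at their bound, stood beside 0.44 for those regions. By copy number, 12.2% of regions with no copy and 9.47% of the 95 with 7 or more were higher in that comparison. These groups differed in coverage, with a median log2 CPM of 2.37 and 3.61. The share higher in the same comparison was 34.2% in the lowest and 3.20% in the highest of 5 equal bins of average abundance. The shares by copy number can therefore not decide whether a rise with copy number was absent.

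Regions near start sites had a higher median change in EHF cells than regions far from them. The median log2 fold change was 0.13 for 13499 regions within 1 kb of a start, -0.03 for 4981 at 1 to 10 kb, -0.07 for 8758 at 10 to 100 kb and -0.18 for 2166 farther away, with satellite and mitochondrial matches left out. Of the start-proximal regions, 441 (3.27%) were higher and 123 (0.91%) lower at an unadjusted p under 0.05, while of those over 100 kb away 38 (1.75%) were higher and 77 (3.55%) lower. With all sequence kinds in, the start-proximal median exceeded the distal median by 0.25, and the same difference was 0.13, 0.17 and 0.26 within replicate pairs 1, 2 and 3. Leaving out EV replicate 2 brought it to 0.06 and leaving out EHF replicate 2 to 0.42. The order of the distal medians also rested on single libraries and on the scaling. Without EV replicate 2 the medians at 10 to 100 kb and farther away were 0.14 and 0.00, beside 0.11 for all members, and the median farther away was -0.065 without EV replicate 1, -0.049 with cyclic loess and -0.48 with a mean of at least 10 counts. By overlap with genes, the medians were 0.13 in exons, -0.04 in introns and -0.08 between genes.

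As a share of nuclear region counts, regions within 1 kb of a start held 42.4%, 44.6% and 42.8% in EV replicates 1 to 3 and 47.6%, 52.1% and 52.2% in EHF replicates 1 to 3. The lines did not overlap, and EHF was higher in each pair, by 5.14, 7.42 and 9.43 percentage points. The means were 50.6% ± 2.64 (SD, n = 3) and 43.3% ± 1.195 (SD, n = 3), with a two-sided exact permutation p of 0.1, the smallest that 3 against 3 libraries allow. The CDX1 line, at 48.2% ± 3.05, was not separated from the EHF line (exact permutation p = 0.2), and the share of EHF+CDX1 libraries exceeded that of CDX1 libraries by 0.780 points (exact permutation p = 0.7). The share of mitochondrial matches was lower in EHF than in EV libraries on average, as given above, and its part in this difference was not tested.

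**Figure D3:**
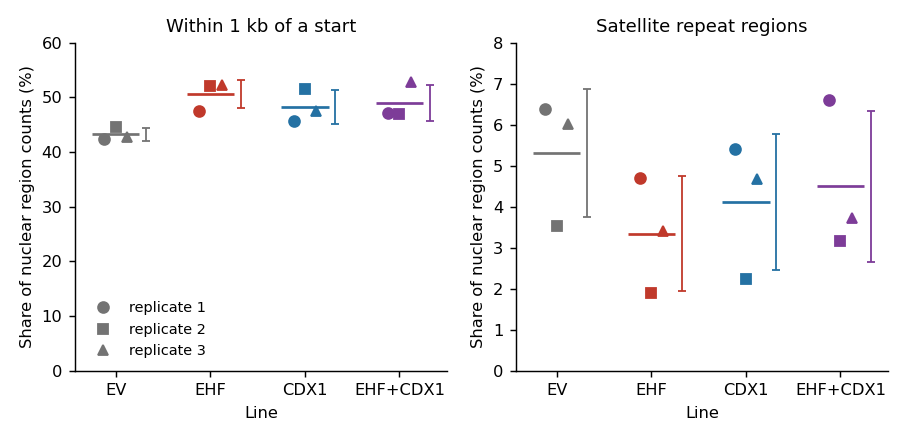
Share of nuclear region counts (percent, vertical axis) in regions within 1 kb of a start site (left) and in satellite repeat regions (right) for each library of the 4 lines, with the mean as a line and the SD of 3 libraries as a bar. On the left the EHF libraries, 47.6% to 52.2%, lie above the EV libraries, 42.4% to 44.6%, and on the right replicate 2 is the lowest of every line.

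Regions in satellite DNA were mostly lower in EHF cells. The class was chosen after the sequences of the called regions had been seen, and its values are a description. The 335 regions with 5 or more GGAAT units had a median log2 fold change of -0.76 (quartiles -1.02 and -0.54), with 0 higher and 99 (29.6%) lower at an unadjusted p under 0.05 (background 2.37%) and 23 called lower with the block (background 0.179%). A second satellite class, 219 regions that hold a short word shared by called regions near centromeres, had a median of -0.65, 52 lower (23.7%) and 13 called with the block. The 188 mitochondrial matches had a median of -0.65, but -0.069 with cyclic loess and -0.058 with that and the block, with 27 lower (14.4%) and 13 called. These 3 classes, with 335, 219 and 188 of the 30146 members, made up 49 of the 54 regions called lower. Both satellite classes were drawn from these called regions, so the count of 49 was partly fixed by that choice. The other 5 were 4 regions over 100 kb from a start site and 1 region 2.86 kb from the start of LINC00960. The 54 changes ran from -1.03 to -1.85 on the log2 scale with the block, and 0 of the 54 regions lay within 1 kb of a start.

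Satellite repeats took 6.37%, 3.53% and 6.02% of nuclear counts in EV replicates 1 to 3 and 4.698%, 1.90% and 3.41% in EHF replicates 1 to 3. The lines overlapped, since EV replicate 2 was low, but EHF was lower in each pair, by 1.67, 1.63 and 2.61 percentage points. The means were 3.34% ± 1.40 and 5.31% ± 1.55 (SD, n = 3; exact permutation p = 0.2). The direction was the same under each of the 41 settings, with medians from 0.37 to 1.19 log2 units under that of all members. The CDX1 line also had a negative median, -0.47, against the same EV libraries, and the median of EHF+CDX1 against CDX1 cells was 0.21. Reads in such repeats map uniquely only where copies differ, so the level of a single region is uncertain.

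**Figure D4:**
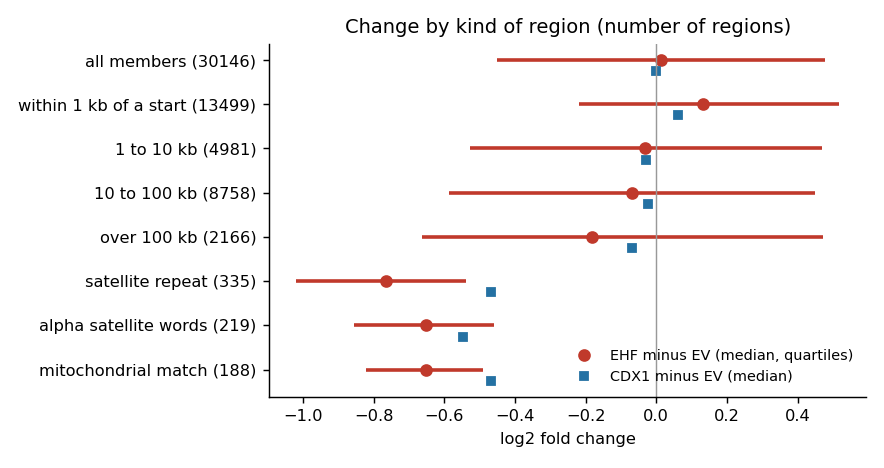
Median log2 fold change of EHF minus EV (red points, with quartiles as bars) and of CDX1 minus EV (blue squares) by kind of region, with the number of regions in brackets. Satellite and mitochondrial classes lie between -0.65 and -0.76 in EHF cells, while regions within 1 kb of a start lie at 0.13. With cyclic loess the mitochondrial median is -0.069.

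The size and precision of the changes depended on how strongly a region was covered. In 5 equal bins of average abundance, the quartiles of the log2 fold changes were -1.06 and 0.75 in the lowest bin and -0.36 and 0.29 in the highest, and the median standard error fell from 1.46 to 0.44. A region of the lowest bin had a median of 1 count in EV libraries, and one of the highest bin 12 counts in EV and 18 in EHF libraries. At the median standard error, a change had to exceed 7.26-fold in the lowest bin and 1.81-fold in the highest for its 95% interval to leave out no change. The median change was -0.15, 0.09, 0.07, 0.06 and -0.02 from the lowest to the highest bin. All 54 regions called lower with the block were in the highest bin, and 1 of the 4 called higher was. Start-proximal regions made up 15.8% of the lowest bin and 68.6% of the highest. The difference between start-proximal and distal medians was positive in every bin, at 0.20, 0.20, 0.23, 0.23 and 0.48, and in each of 5 bins of GC content, from 0.05 to 0.25.

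**Figure D5:**
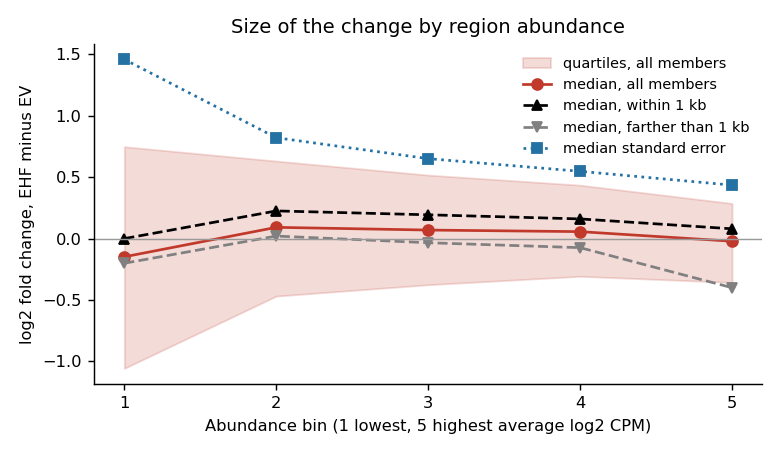
Median log2 fold change of EHF minus EV (vertical axis) in 5 equal bins of average log2 CPM (horizontal axis), for all members with quartiles shaded and for start-proximal and distal regions, with the median standard error. The standard error falls from 1.46 to 0.44 and the distal median reaches -0.40 in the highest bin.

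Among better covered regions, with a mean of at least 20 counts in the higher line and libraries that did not overlap, the 10 with the smallest p in each direction were named by rule, out of 212 higher and 125 lower. Since the rule used this contrast, their values are given as a description. Across all regions tested, 5.98% did not overlap with EHF higher and 3.96% with EHF lower. The 10 higher regions had log2 fold changes of 1.21 to 1.81 and edgeR adjusted p-values of 0.67 to 0.89, and 5 of them lay within 1 kb of a start. The region at the start of TMEM94 (chr17:75456398-75456639) stood at 3.29, 3.45 and 6.01 CPM in EV and 9.15, 15.8 and 17.4 in EHF libraries, a log2 fold change of 1.81 ± 0.51 (SE). The start of TMEM161B (chr5:88268800-88269041) had 3.29, 4.14 and 9.02 CPM in EV and 14.6, 18.3 and 14.6 in EHF libraries. In both the highest EV library was under the lowest EHF library, and both were also higher in the CDX1 line than in the same EV libraries, by 1.18 and 1.42 on the log2 scale.

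The start of WASL, which encodes N-WASP, an activator of actin branching (chr7:123748966-123749270), had 7.68, 6.22 and 7.52 CPM in EV and 13.7, 16.7 and 21.0 in EHF libraries. The start of H2AZ1, the gene of histone variant H2A.Z (chr4:99950270-99950646), had 8.78, 9.67 and 7.52 CPM in EV and 22.9, 16.7 and 22.9 in EHF libraries. In both, every EHF library was above every EV library. An intronic region 124 bp from the start of the zinc finger gene ZNF639 (chr3:179323372-179323639) stood at 4.39, 4.84 and 4.51 CPM in EV and 10.1, 11.4 and 20.1 in EHF libraries. The other higher regions were in an intron of FNDC3B, 1.81 kb from the start of the doublecortin-domain gene DCDC2, in LINC00887, in an intergenic stretch at chr6:26743315-26743596, and in an exon of TCHH, the gene of the hair follicle protein trichohyalin (chr1:152107751-152108014). The TCHH region held 8 cores and had 3.29, 6.22 and 7.52 CPM in EV and 18.3, 8.53 and 21.9 in EHF libraries, with a CDX1-minus-EV log2 fold change of -0.09, whereas the other 9 were positive in the CDX1 line. Between EHF+CDX1 and CDX1 cells, 5 of the 10 were positive and 1 passed an unadjusted p of 0.05, the chr6 region, at -1.30.

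Of the 10 lower regions, 7 were satellite repeats, 1 held an alpha satellite word and 9 lay over 100 kb from any start site, and their log2 fold changes ran from -1.16 to -1.56 (edgeR adjusted p = 0.45 to 0.89). The satellite region chr1:143247172-143247410 shown above had 48.3, 27.6 and 36.1 CPM in EV and 23.8, 4.06 and 12.8 in EHF libraries (edgeR adjusted p = 0.0005 with the block). The region at chr1:125173964-125174131 had 39.5, 20.03 and 55.6 CPM in EV and 12.8, 13.8 and 13.7 in EHF libraries (edgeR adjusted p = 0.017 with the block). EHF libraries were under EV in each pair in both. Of 15 regions called with the block that met the same count and overlap rule, all were lower, and the 10 of smallest p ranged from -1.09 to -1.65 with the block. Among them, the satellite region chr16:46400792-46401128 had 126, 74.6 and 147 CPM in EV and 66.8, 20.3 and 71.3 in EHF libraries.

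Regions within 5 kb of the start sites of listed genes were counted without a test of the lists, and 0 regions of any list were called by edgeR with or without the block. Of 17 regions at 8 of 12 colonic differentiation and stem cell genes, 0 were higher and 0 lower at an unadjusted p under 0.05, with a median log2 fold change of 0.15. KRT20, OLFM4, LGR5 and ISX had no region. The region with the smallest p among those with enough counts, at the start of the crypt transcription factor gene SOX9, had 12.1, 6.91 and 9.02 CPM in EV and 11.9, 13.8 and 10.97 in EHF libraries, which overlap. Of 32 regions at 13 of 26 other ETS family genes, 0 were higher and 0 lower (median 0.05). The start of ETS1 stood at 18.7, 24.2 and 22.6 CPM in EV and 16.5, 14.2 and 15.5 in EHF libraries, the reverse order without overlap, at a log2 fold change of -0.52 ± 0.37 (SE). Of 12 mesenchymal regions at 6 of 17 genes, 0 passed in either direction (median 0.05).

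Regions at genes of ERK output and epithelial identity had higher medians than all members, without a test of the difference. Of 45 regions at 18 of 20 genes of RAS-ERK output, 6 were higher and 0 lower at an unadjusted p under 0.05 (13.3%; background 2.59%), with a median of 0.45 against 0.01 for all members and 0.33 in the CDX1 line. The start of DUSP6, the gene of a phosphatase that inactivates ERK, went from 10.98, 6.22 and 6.01 CPM in EV to 15.6, 21.9 and 10.1 in EHF libraries, with EHF replicate 3 within the EV range (log2 fold change 1.09 ± 0.43 SE, edgeR adjusted p = 0.89). Of 74 regions at 31 of 35 epithelial genes, 6 were higher and 1 lower (median 0.27). The start of KLF5, a transcription factor of proliferating intestinal crypt cells, had 16.5, 11.7 and 9.02 CPM in EV and 20.1, 24.8 and 19.2 in EHF libraries, which do not overlap (0.78 ± 0.38 SE), and KLF5 was the epithelial region of smallest p among those with enough counts. The next by that rule went in different directions, at 0.49 ± 0.43 (SE) for a region near ERBB3 and -0.52 ± 0.50 (SE) for one near EPCAM. In both, EHF and EV libraries overlapped. Of 37 regions at 23 of 25 genes of DNA replication and the cell cycle, 2 were higher and 0 lower (median 0.19). The start of CCNB1, the gene of cyclin B1 of mitosis, had 7.68, 3.45 and 9.02 CPM in EV and 17.4, 9.75 and 18.3 in EHF libraries (1.22 ± 0.47 SE), and that of CDK1, the kinase that cyclin B1 activates, had 12.1, 7.60 and 10.5 in EV and 19.2, 14.2 and 17.4 in EHF libraries. All these regions lie within 5 kb of a start by choice, and the median of all members within 1 kb of one was itself 0.13. The list of other cell types (blood, vessel, fibroblast and liver) had 2 regions, at PTPRC and COL1A2, with a median of 1.09 and 1 of 2 higher at an unadjusted p under 0.05, the largest median of the lists, and its part in the values above was not tested.

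A single ETS-like word differed little between regions with and without it. The word GGAAGT, searched on both strands, was in 18.9% of 13499 start-proximal regions, whose median log2 fold change exceeded that of the rest by 0.05, and in 13.6% of 15905 distal regions, whose median exceeded the rest by 0.08. The same letters in reverse order (TGAAGG) gave differences of -0.04 and -0.02. The longer word CCGGAAGT was in 5.71% of start-proximal regions, with a difference of 0.05 and 4.15% higher at an unadjusted p under 0.05 against 3.21% of the rest, and in 54 distal regions. The AP-1 word TGANTCA was in 28.4% of distal regions, with a difference of 0.06, and in 6.50% of start-proximal regions, with a difference of -0.10. The caudal words TTTATG and TTTATT gave differences between -0.09 and 0.02. GGAAGT contains the core counted above, so these are not separate measures.

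By chromosome, the medians of regions outside satellites ran from -0.03 to 0.25, highest on chromosome 17 (931 regions), with chromosome Y apart at -0.53 (43 regions). As shares of counts, EHF and EV libraries did not overlap on 5 of 24 chromosomes, 3 higher and 2 lower in EHF cells, each at the smallest exact permutation p of 0.1 (0.48 after Benjamini-Hochberg adjustment over the 24). The largest of these was chromosome 3, with 10.2% ± 0.664 of counts in EV and 8.94% ± 0.278 in EHF libraries (SD, n = 3). The 5 tested regions nearest to EHF outside its exons were all intergenic, and no difference was detectable at this depth. The one at chr11:34600678-34600828, 20.3 kb from the start site, had 0, 4 and 0 counts in EV and 4, 8 and 3 in EHF libraries, a log2 fold change of 1.30 ± 0.88 (SE) at an unadjusted edgeR p of 0.14. Unadjusted edgeR p-values of the other 4 ran from 0.12 to 0.79.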

How the data were processed

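Libraries were those of the EHF and EV lines, 3 each, with the CDX1 and EHF+CDX1 lines in the same fit. Groups and replicate numbers came from the sample titles. Reads had been mapped to hg38 with Subread 2.0.0 keeping unique alignments, peaks called with HOMER 4.7 and merged over samples, and reads assigned with featureCounts 2.0.0, per the study's methods and the submitters' processing notes; whether duplicates were removed or reads shifted is not given in the sources used here. The authors' deposited table holds raw counts per region, and the deposited log2 files hold log2 CPM, used only for limma-trend. The members and lists, and the core-dense and satellite classes, were chosen with earlier results of these data known.

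Counts were tested in R 4.3.3 with edgeR 4.0.16 (TMM, robust quasi-likelihood F-test, two-sided, Benjamini-Hochberg over all 30154 regions with a CPM of 3 in at least 1 library; threshold 0.05; biological coefficient of variation 0.335), with limma 3.58.1 and DESeq2 1.42.0 as alternatives, and checked on simulated counts. Adding replicate number as a block was used beside it because the deviations of same-numbered EV and EHF libraries correlated above 0.1 in each of the 3 pairs; with EHF+CDX1 libraries those of replicate 3 did not (0.011, 0.073 and 0.032 with EV, EHF and CDX1). CPM are TMM-scaled. Regions were annotated with GENCODE 44 and start distance is to the nearest start site. Mitochondrial matches were found with blastn 2.17.0 (at least 40 bp at 80% identity). Copies of GGAA or GGAAT were counted, overlaps included, on the strand with more. A library with 3 counts in a region served as floor. Counting intervals of ratios are exact, those of shares are Wilson (half-width at most 0.254 points); both cover counting error only, since reads are not independent molecules. Replicates of a line differed by more than sampling noise (chi-square per degree of freedom 1.54 to 5.05). Named regions were those called without the block, the 10 of smallest p in each direction with a mean of at least 20 counts in the higher line, no overlap between lines and no mitochondrial match, the same among block calls, and the 3 of smallest p per list with a mean of at least 10 counts over the 6 libraries. Other named regions were chosen after their values were seen. A few regions that met these rules are not reported here. The alternatives were other scalings, tests and filters, the block, thinning, and leaving out libraries.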

Additional observations from a re-analysis of the deposited data

Results flagged for a closer look

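The difference between EHF and EV lines was unlike that between EHF+CDX1 and CDX1 lines at 2 of the regions named, by edgeR's interaction term. Line and factor cannot be told apart here. The satellite region chrY:56728066-56728225 had 34, 28 and 18 counts in EV, 14, 28 and 10 in EHF, 25, 44 and 16 in CDX1 and 0 in every EHF+CDX1 library, an interaction of -6.79 on the log2 scale (edgeR adjusted p = 7e-07) that rests on those libraries at 0. The region chr7:119176106-119176261 was at 0 in every EV library, and the fitted interaction of -6.79 is set by those zeros: EHF, CDX1 and EHF+CDX1 libraries stood at 4.57 to 6.91, 2.37 to 8.20 and 3.16 to 4.98 CPM. Groups of 3 libraries were not searched for outlying samples.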

How the results depend on the processing

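The number of members called by edgeR, 0 without a block, was 58 with the replicate block, 73 with it on the 6 libraries alone, 55 without the robust option, 12 with cyclic loess, 78 with library size alone and 66 with exons and mitochondrial matches left out (the last 4 chosen after seeing the data). Without a block it was 2 without the robust option, 1 on the 6 libraries, 1 with DESeq2 and 11 with voom, and leaving out libraries gave 0 to 9 (8 without EHF replicate 2, 9 without replicate 2 of every group); with the block, dropping an EHF library gave 33, 8 or 8 calls and dropping an EV library 196, 14 or 12, for replicates 1, 2 and 3 in that order. Members higher at an unadjusted p under 0.05, 772, were 404 with DESeq2, 26 with library size alone (71 with the replicate block), 6 with limma-trend and 183 with a mean of 10 counts, and 505 to 1044 leaving out libraries. Those lower, 716, were 1234 with the replicate block, 1188 with it on the 6 libraries, 1219 without the robust option, 2567 with library size alone and 1163 without exons and mitochondrial matches, 1492 with limma-trend and 173 with a mean of 10 counts, and 489 to 1360 leaving out libraries (1140 with the block and without EHF replicate 1). The median of all members, 0.01, was -0.034 with DESeq2, -0.025 with its size factors, -0.031 with thinning, -0.50 with library size alone, -0.53 with that and the replicate block, -0.68 with limma-trend, and -0.023 to 0.11 leaving out libraries (-0.017 without EHF replicate 1; with the block, -0.023, 0.075 and 0.067 without EHF replicate 1, EHF replicate 2 and EV replicate 2). The start-proximal excess of 0.25 was 0.17 with library size alone, 0.15 with that and the replicate block, 0.41 with a mean of 10 counts, 0.17 within GC bins, and 0.062 to 0.42 leaving out libraries, the extremes being without EV replicate 2 and EHF replicate 2. Its share of counts, 7.33 points higher, turned to -3.50 with all counts in the total, which then holds the EHF exons. The mean of the paired differences is the same 7.33 by arithmetic, since the pairs are balanced, and is no separate check. Of the unadjusted calls, 51.9% were higher as scaled, 41.9% with DESeq2 size factors and 2.96% with library size alone. The cause of the other shifts was not tested. At this depth, 2-fold changes of most single regions were not detectable.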

Other observations

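Leaving out EHF replicate 2 without a block gave 8 calls, all higher, of which 4 held 7 or more ETS cores. Of all members, satellite regions included, 1.41% hold as many. The core-dense class had been chosen with the FAM89A region in view, which is among the 4, so the comparison of these shares is no test. These 8 regions were chosen after their values were seen. Besides the FAM89A and NCAPG2 regions they included chr4:164427688-164427838 (8 cores), with 0 counts in every EV library and 12, 1 and 11 in EHF libraries. A region 22.1 kb from GPR6, a G protein-coupled receptor gene (chr6:110000418-110000606, 5 cores), had 0, 1 and 1 counts in EV and 15, 2 and 18 in EHF libraries, a ratio of 11.4 (95% counting interval 2.93 to 97.7), and was higher in EHF+CDX1 than in CDX1 cells by 2.78 ± 1.33 (SE) on the log2 scale, at an unadjusted edgeR p of 0.041. A region 4.83 kb from LINC00207 (chr22:44575868-44576018, 8 cores) was at 0 in all EV and CDX1 libraries and had 15, 2 and 7 counts in EHF and 3, 0 and 4 in EHF+CDX1 libraries. The chr4 and LINC00207 regions had passed the filter only through EHF libraries, so their being higher there was fixed by the choice.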
